A study of Mus musculus with 3 samples.

Results

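The neuropeptide genes Npy, Sst, Vip, Tac1 and Penk were followed in the neural retina of Rp1 knockout mice. These 5 genes were read by 7 of the 12422 probe sets that are not controls, namely every probe set whose platform annotation gives exactly 1 gene symbol and that symbol is one of the 5. Npy, Sst, Vip and Tac1 each had 1 probe set and Penk had 3.

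All 3 samples belong to 1 group. The mice lacked Rp1 (Rp1-/-), a microtubule-associated protein of the photoreceptor outer segment, on a mixed 129/SvEv and C57BL/6 background, and were taken at postnatal day 21. Each RNA came from neural retinas pooled over 3 to 4 animals, collected between 1 and 2 pm, and was read on 1 one-colour U74Av2 array, so the spread between samples is a spread between pools and not between animals. Control mice were not analysed here. Conditions were therefore not compared and nothing was tested, and the replicate numbers 1 to 3 only name the pools.

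Neuropeptides are made as longer precursors, cut by convertases in the secretory pathway, stored in dense-core vesicles and released to act on G-protein-coupled receptors. In the mammalian retina they are best known from sparse subtypes of amacrine cells, the interneurons of the inner retina, and from some ganglion cells, where they accompany GABA or other fast transmitters. A transcript of a sparse cell type makes up little of the RNA of a whole retina, so the background of the array matters for these genes. In such bulk RNA, fewer cells of a type and less RNA per cell cannot be told apart.

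Detection was read against controls: a signal counted as above background if it passed the 95th percentile of 19 control probe sets, which target transcripts of bacteria and yeast. This limit was 160, 80.7 and 107 signal units in replicates 1, 2 and 3. Of the 7 neuropeptide probe sets, 5 were above it on all 3 arrays, representing 4 of the 5 genes; 54.4% of all probe sets were. Signals are deposited intensities put on a common scale, given as replicates 1, 2 and 3 in that order, with the mean ± SD over the 3 pools (n = 3). Levels of different probe sets are not set against each other, because probes differ in response.

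Npy encodes neuropeptide Y, an inhibitory peptide of amacrine cells. Its probe set (103235_at) gave 466, 391 and 659, with a mean of 505 ± 138. Signals lay 2.91, 4.84 and 6.15 times the limit of their arrays. Npy was thus detected in every pool, and highest in replicate 3. The highest pool exceeded the lowest by 1.69-fold, a range of 0.75 on the log2 scale. Among the 6752 probe sets above the limit on all arrays, 47.1% had a range at least as large.

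Sst encodes somatostatin, an inhibitory peptide of sparse, widely branching amacrine cells. Its probe set (95436_at) gave 398, 217 and 63.5, with a mean of 226 ± 168. Replicates 1 and 2 lay 2.48 and 2.69 times above their limits, whereas replicate 3 lay below its own, at 0.59 of it. Sst was the only one of the 5 genes whose detection differed between pools at its best probe set. Replicate 1 was at least 3.72-fold above replicate 3, taking the limit of 107 as the bound there.

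Vip encodes vasoactive intestinal peptide, made by a group of GABAergic amacrine cells. Its probe set (100393_at) gave 480, 222 and 230, with a mean of 311 ± 147. All pools lay above background, at 2.99, 2.75 and 2.15 times the limit. Replicate 1 was 2.16-fold above replicate 2, a log2 range of 1.11, while replicates 2 and 3 differed by 0.05. The background limit was also highest in replicate 1, at 160 against 80.7 and 107 in replicates 2 and 3. With arrays scaled to a common median or quantile-normalized the range of Vip was 0.82 or 0.90, with replicate 1 still highest.

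Tac1 encodes the precursor of the tachykinins substance P and neurokinin A. Its probe set (102726_at) gave 393, 350 and 211, with a mean of 318 ± 95.04. It was above background throughout, at 2.45, 4.34 and 1.97 times the limit. Replicate 3 was lowest, 1.86-fold below replicate 1, a log2 range of 0.90. The order of the higher pools depended on the scaling: at a common median Tac1 gave 338, 411 and 215, and after quantile normalization 343, 390 and 214, so that replicate 2 was highest in both. Replicate 3 was lowest in each.

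Penk encodes proenkephalin, the precursor of Met- and Leu-enkephalin. Its probe set 94516_f_at gave 949, 890 and 1204, with a mean of 1014 ± 167 and signals 5.92, 11.0 and 11.2 times the limit. Its pools spread over 1.35-fold, or 0.44 on the log2 scale. The probe set 94517_r_at gave 242, 161 and 173, with a mean of 192 ± 43.7, which is 1.51, 1.99 and 1.61 times the limit. The probe set 161164_r_at gave 119, 24.0 and 36.8, below background on all 3 arrays, so that no fold is given for it. On arrays of this design the suffix f marks probes shared by a family of sequences and the suffix r marks probe sets for which selection rules were relaxed, and Penk had no probe set with the plain suffix.

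**Figure D1:**
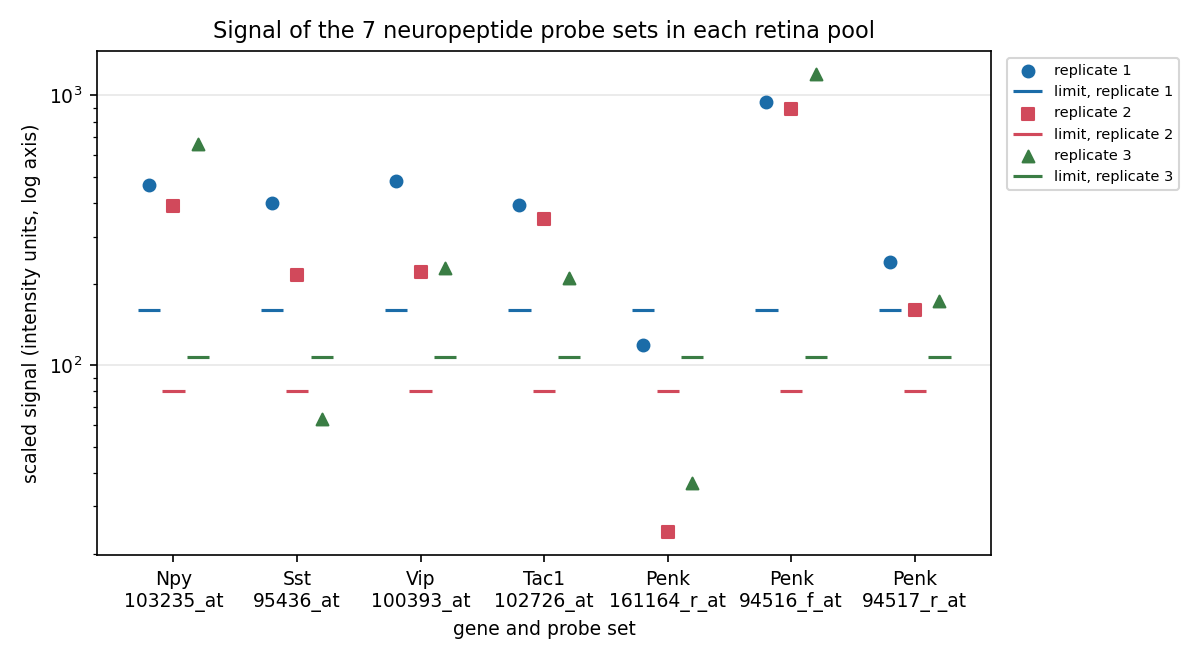
Scaled signal (log axis) of the 7 neuropeptide probe sets in the 3 pools, with a short bar for the background limit of each array. Sst falls below the bar in replicate 3 alone, Penk 161164_r_at lies below it in all pools, and the other 5 probe sets lie above it throughout.

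The Penk probe sets did not rank the pools alike. Centred on its own mean, 94516_f_at deviated by -0.08, -0.18 and 0.26 on the log2 scale, and 94517_r_at by 0.36, -0.23 and -0.13. The first was therefore highest in replicate 3 and the other in replicate 1. Their largest gap in a pool was 0.44, in replicate 1. For comparison, the array held 1041 pairs of probe sets of 1 gene, from 794 genes, in which both were above the limit on all arrays. The median largest gap over these pairs was 0.57, and 63.8% of them had a gap at least as large as that of the Penk pair. The pair thus differed by less than most pairs on the array. The undetected 161164_r_at deviated by 1.34, -0.98 and -0.36, and its gap was 1.42 to 94516_f_at and 0.98 to 94517_r_at.

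Of the 7 probe sets, 3 had a log2 range of 1 or more (Sst, Vip and Penk 161164_r_at), against 55.0% of all probe sets. Of the 5 above the limit on all arrays only Vip did, against 30.6% of the 6752 probe sets that passed the same limit. The median range of these 5 was 0.75 and that of the 6752 was 0.72. The count of wide ranges without replicate 1 was 1, that of Sst.

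Replicate 1 was the highest pool for 5 of the 7 (Sst, Vip, Tac1 and 2 probe sets of Penk). Replicate 3 was highest for Npy and Penk 94516_f_at. Of those highest in replicate 1, only Vip, Tac1 and Penk 94517_r_at were above the limit on all arrays. Sst and Penk 161164_r_at were not, so the count of 5 is not directly comparable with percentages over detected probe sets. Over the 6752 detected probe sets, 43.1% were highest in replicate 1, 31.5% in replicate 2 and 25.4% in replicate 3. The background limit was also highest in replicate 1. Scaling to a common median moved the median log2 signal by -0.22, 0.23 and 0.02 in replicates 1, 2 and 3. Under that scaling and after quantile normalization, Sst and Vip kept replicate 1 as their highest pool, and Npy and Penk 94516_f_at kept replicate 3.

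**Figure D2:**
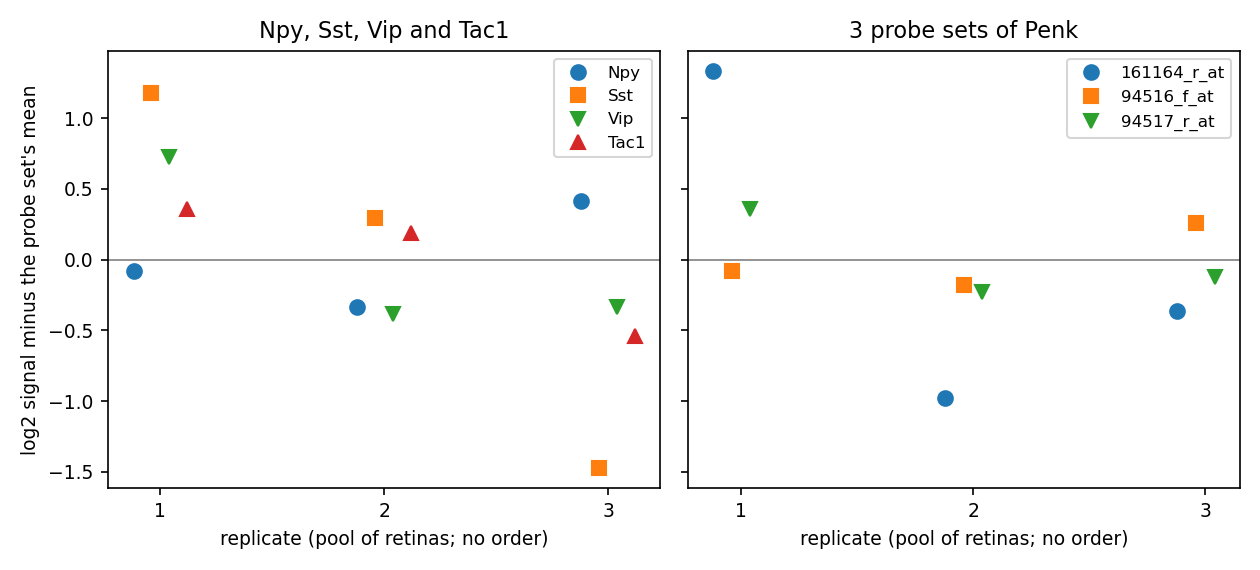
Log2 signal minus the mean of its probe set, by pool, for Npy, Sst, Vip and Tac1 (left) and for the 3 probe sets of Penk (right). Sst spans 2.65, with 1.18 in replicate 1 and -1.47 in replicate 3, and Penk 161164_r_at, which lies below background, spans 2.31.

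Profiles over the 3 pools were compared by the largest difference in any pool between centred log2 signals, among genes above the limit on all arrays at their preferred probe set. Penk entered at 94516_f_at alone. Npy and Penk 94516_f_at were the closest pair of the neuropeptide genes, with a difference of 0.16. The closeness did not extend to Penk 94517_r_at, also above the limit: in replicate 3 it deviated by -0.13 and Npy by 0.42. Of the 5005 other genes compared, 2.70% were as close to Npy and 5.87% as close to Penk. Vip and Tac1 differed by 0.57, and every other pair by 0.80 to 0.96. Sst could not enter, being below the limit in replicate 3.

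The 3 genes closest to Npy were Dync1i1, Entpd2 and Zkscan14, at 0.0021 to 0.016. Those closest to Vip were Cbx6, Rtkn and Ndufa10, at 0.0068 to 0.030. Tac1 was closest to Nudt9, Tbc1d22a and Ten1, at 0.0025 to 0.0081, and Penk 94516_f_at to Uba7, Pdcd6ip and Ptprd, at 0.0093 to 0.014. Such closeness rests on 3 samples and was not tested. A difference of 0.1 or less was found for 52 genes with Npy, 48 with Vip, 41 with Tac1 and 106 with Penk. These were 1.04%, 0.96%, 0.82% and 2.12% of the 5005 genes compared.

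The upstream sequences of the genes are shown because several neuropeptide genes, Sst and Vip among them, are known targets of cyclic AMP signalling. A link between these sequences and the differences between pools was not tested. The cyclic AMP response element, bound by CREB factors, has the letters TGACGTCA, which read the same on both strands. RefSeq promoter windows (build GRCm38.p6, 250 bases before to 50 after the gene start) matched 4 of the 5 genes, Penk not among them. The last 120 bases before the gene start follow, 5′ to 3′ on the gene's own strand, with TGACGTCA or its first 7 letters in capitals.
Npy (chr6:49822590-49822709, plus strand): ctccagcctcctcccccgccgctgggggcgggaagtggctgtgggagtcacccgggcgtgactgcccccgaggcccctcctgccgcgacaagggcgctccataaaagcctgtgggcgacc
Sst (chr16:23890845-23890964, minus strand): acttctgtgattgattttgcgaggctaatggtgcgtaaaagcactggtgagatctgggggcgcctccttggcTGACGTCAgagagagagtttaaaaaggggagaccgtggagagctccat
Vip (chr10:5639098-5639217, plus strand): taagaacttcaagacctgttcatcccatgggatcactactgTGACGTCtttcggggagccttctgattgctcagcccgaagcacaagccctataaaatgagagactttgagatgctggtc
Tac1 (chr6:7554941-7555060, plus strand): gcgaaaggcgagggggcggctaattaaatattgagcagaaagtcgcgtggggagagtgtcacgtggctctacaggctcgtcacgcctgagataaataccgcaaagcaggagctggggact

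The full element stood in the Sst window at positions -48 to -41 from the gene start. It was found in 1.79% of the 32851 promoter windows of that table. The Vip window held only the first 7 letters, TGACGTC, at -79 to -73, a form found on either strand in 3.21% of windows (full elements included). This shorter form was searched after the sequences had been seen. The Npy and Tac1 windows held neither. These are matches of letters, and binding was not measured.

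Other peptide precursors give the setting of these 5 genes. Of 24 further precursor genes measured, 10 were above the limit on all arrays (12 counting genes that passed at any probe set) and 5 on none, against 60.7% of all genes above it on all arrays. Gal, the galanin precursor, gave 622, 335 and 366. Pdyn, which encodes prodynorphin, gave 418, 180 and 314 at 1 probe set but 43.6, 122 and 29.1 at another. A further probe set of Gal gave 89.2, 73.7 and 250, above the limit in replicate 3 alone. Both genes were thus highest in replicate 1, as Vip was, at the first of these probe sets, but not at the other.

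Tac2, the tachykinin precursor of neurokinin B, gave 260, 701 and 552, lowest in replicate 1 and highest in replicate 2 under each scaling tried. Cck, the cholecystokinin precursor, gave 140, 455 and 323, below the limit in replicate 1 alone. Trh, the precursor of thyrotropin-releasing hormone, gave 186, 288 and 536. The precursor genes therefore did not share 1 pattern over the pools. Of the 10 above the limit, 6 were highest in replicate 1 (5 at a common median or after quantile normalization), 2 in replicate 2 and 2 in replicate 3, and 6 had a log2 range of 1 or more, against 28.3% of all genes above the limit.

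The remaining precursors above the limit were Pomc (pro-opiomelanocortin) at 187 ± 52.7, Hcrt (hypocretin) at 320 ± 83.0, Oxt (oxytocin) at 490 ± 195, Nppa and Nppb (natriuretic peptides) at 494 ± 204 and 122 ± 36.4, and Nmu (neuromedin U) at 243 ± 127. Nppb lay just over the limit in replicate 1, at 162 against 160. The secretin precursor Sct was below background at its plain probe set, at 24.5 ± 6.89, but gave 319, 1123 and 1227 and 1682, 1938 and 3702 at the others, whose suffixes are f and r. Ppy, the pancreatic polypeptide precursor, likewise passed only at a probe set with the suffix f, at 365 ± 122.

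**Figure D3:**
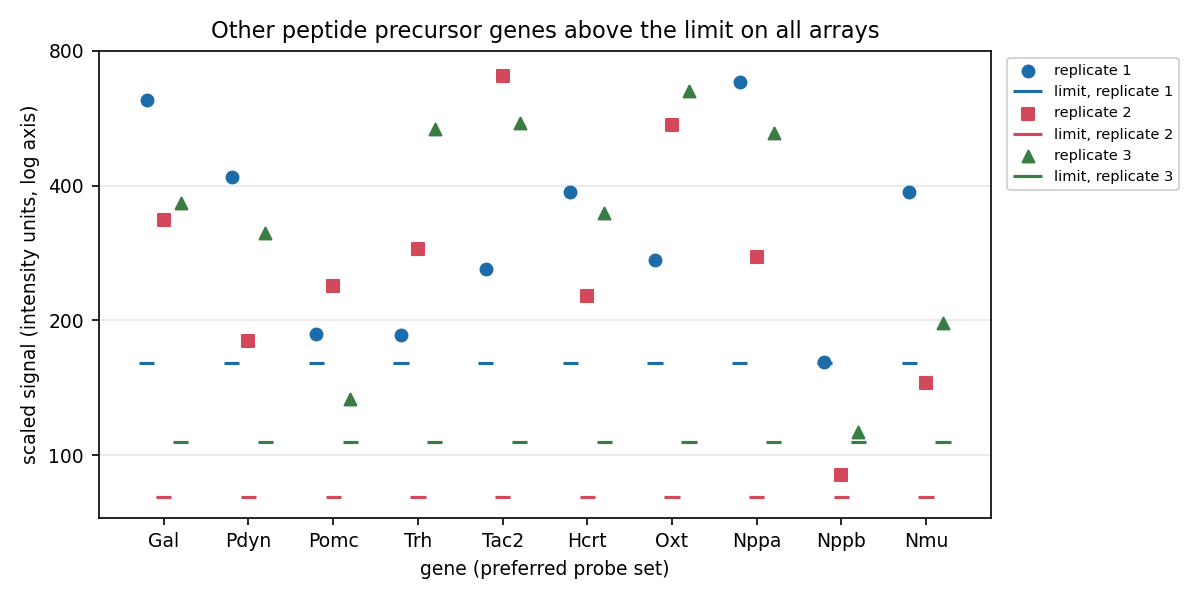
Scaled signal (log axis) of the 10 other precursor genes above the limit on all arrays, by pool, with a short bar for the limit of each array. Gal, Pdyn and Nmu are highest in replicate 1, Trh and Oxt in replicate 3, and Tac2 in replicate 2.

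The list of receptors for these peptides also held the PACAP receptor Adcyap1r1. Of its 18 measured genes, 4 were above the limit on all arrays, against 60.7% of all genes. Counting any probe set, 5 were above it on all arrays and 7 on none. The somatostatin receptors were represented by Sstr4, at 779, 656 and 980, and Sstr2, at 244, 114 and 188. Vipr2, a receptor for VIP and PACAP, gave 343, 436 and 561, and the PACAP receptor Adcyap1r1 gave 239, 189 and 269. Of these 4, Sstr2 alone was highest in replicate 1, and it was lowest in replicate 2 rather than in replicate 3, where Sst was lowest. The other 3 were highest in replicate 3 under each scaling tried, at their preferred probe sets. A further probe set of Adcyap1r1 gave 74.9, 78.1 and 7.50, below background on all arrays.

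The neuropeptide Y receptors Npy1r, Npy4r and Npy5r passed the limit on at most 1 array each, with means of 90.1 ± 63.4, 53.8 ± 23.7 and 27.3 ± 33.3. Npy2r gave 92.2, 72.4 and 148 at its plain probe set and 382, 157 and 327 at one with the suffix f. The opioid receptors Oprd1 and Oprm1, on which enkephalins act, were above background on no array, at 25.7 ± 12.1 and 26.7 ± 29.2. The substance P receptor Tacr1 was above it in replicate 1 alone, at 263, 30.3 and 45.5.

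The machinery of peptide processing was detected more fully, with 10 of 13 genes above the limit on all arrays, against 60.7% of all genes. At their preferred probe sets none of the 10 had a log2 range of 1 or more, against 28.3% of all genes above the limit. Cadps and Chgb came close, at 0.98 and 0.95. Cpe, the carboxypeptidase that trims cleaved precursors, gave 11936, 12553 and 9110. The granin genes of dense-core vesicles gave 1147 ± 251 for Chga, 4482 ± 1618 for Chgb, 2558 ± 251 for Scg2 and 629 ± 151 for Scg3. Scg5 and Pcsk1n, partners of the convertases, gave 1345 ± 127 and 1801 ± 275. Cadps, a factor of vesicle priming, gave 4750 ± 1528, the vesicle protein gene Ptprn gave 1516 ± 464 and the convertase Furin 991 ± 173.

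The other 3 genes passed on some arrays only: Pcsk1, the neuroendocrine prohormone convertase, at 26.8, 93.6 and 158, Pam, the enzyme that amidates peptides such as neuropeptide Y, VIP and substance P, at 57.8, 283 and 319, and Ptprn2, a vesicle protein gene related to Ptprn, at 365, 106 and 77.7. Pcsk1 and Pam were below the limit in replicate 1, the pool in which Vip and Sst were highest. Ptprn2, named after its values were seen, was highest in replicate 1 and below the limit in replicate 3 alone, as Sst was. The further probe set of Chga passed on all arrays, at 360, 283 and 128, and that of Chgb in replicate 1 alone.

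**Figure D4:**
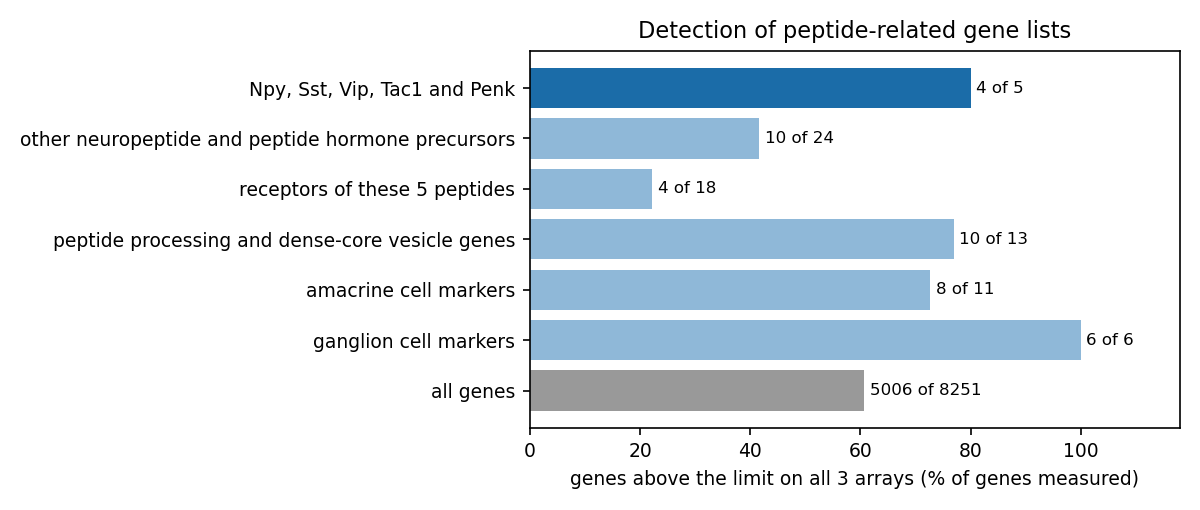
Percentage of measured genes above the limit on all 3 arrays for the 5 neuropeptide genes, for related gene lists and for all genes, with counts beside the bars. Receptors (4 of 18) and other precursors (10 of 24) lie below the 60.7% of all genes, and processing genes (10 of 13) above it.

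Amacrine cell markers, the class in which the 5 peptides are mainly found, were above the limit for 8 of 11 genes. Gad1, a GABA-synthesising enzyme, gave 5445, 5053 and 4039, and Slc32a1, the vesicular transporter of GABA and glycine, gave 2772, 2952 and 2184. Slc6a9, the glycine transporter, gave 1613, 2757 and 2965, and Gad2 gave 113, 105 and 75.5, above the limit in replicate 2 alone. The log2 ranges of Gad1 and Slc32a1 were 0.43 each, below those of Sst and Vip, but other markers varied more. The median range of the 8 genes above the limit was 0.89, and 1 of them, Th, had a range of 1 or more. Th, named after its values were seen, gave 825, 193 and 205, a range of 2.10, wider than that of Vip. Of the 8 genes above the limit, 4 were highest in replicate 1, 2 in replicate 2 and 2 in replicate 3, and 3 were lowest in replicate 1. At a common median these counts of highest pools were 2, 5 and 1. After quantile normalization they were 5, 1 and 2, so the highest pool depended on the scaling. The order that Sst showed, highest in replicate 1 and lowest in replicate 3, held for 2 of the 8 genes, against 20.4% of all genes above the limit. It held for 2 at a common median (13.2% of all) and for 5 after quantile normalization (21.7% of all).

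Ganglion cell markers were above the limit for all 6 genes, and 5 of them were highest in replicate 1 and lowest in replicate 3, the order that Sst showed, against 20.4% of all genes above the limit. This order held for 2 of them at a common median (13.2% of all), where 4 of the 6 genes were highest in replicate 2, and for 4 after quantile normalization (21.7% of all). One of the 5, Sncg, named after its values were seen, gave 1892, 1410 and 799 at its preferred probe set but the opposite order at another, with 800.4, 1149 and 1720. The largest range among these 5 was that of the neurofilament gene Nefm, at 590, 344 and 116, while Nefl gave 1567, 1519 and 1464. Thy1 and Nefh gave 2399, 1663 and 1515 and 1477, 1089 and 971. The remaining marker, Rbpms, named after its values were seen, went the other way and was lowest in replicate 1 at both its probe sets. It gave 206, 690 and 783 at the preferred probe set and 222, 735 and 542 at the other. The summed signal of the list was 8132, 6715 and 5649, and 6985, 7881 and 5745 at a common median. Its part in the Sst result was not tested.

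Markers of neighbouring tissues also differed between the pools. The summed signal of 5 pigment cell genes was 1422, 12026 and 7835, that of 4 red blood cell genes 5490, 31716 and 8254, and that of 6 connective tissue and smooth muscle genes 1586, 3366 and 4087. All 3 sums were lowest in replicate 1, where Sst and Vip were highest, and no marker was listed at 0. Of these genes, 2, 2 and 3 were above the limit on all arrays. Endothelial genes, 3 of 4 above the limit, summed to 2148, 1242 and 1666. Rod genes (5 of 5 above the limit), Müller glia genes (6 of 6) and lens genes (6 of 6) were above background in all pools. The Müller glia genes summed to 12448, 19732 and 17126 and the lens genes to 91178, 140830 and 99035, both lowest in replicate 1 under each scaling tried. Single genes were split. Of the 6 Müller glia genes 4 were lowest and 2 highest in replicate 1, and of the 6 lens genes 3 were lowest and 2 highest there. The rod genes summed to 96908, 143699 and 96807, highest in replicate 2, though not after quantile normalization. The part of these tissues in the differences between pools was not tested.

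A stricter limit, chosen after the data were seen, was set by the 95th percentile of 15 antisense control probe sets, which was 596, 583 and 500 in replicates 1, 2 and 3. Only Penk 94516_f_at exceeded it on all arrays, and 21.8% of all probe sets did. Npy exceeded it in replicate 3. Sst, Vip and Tac1 did so in no pool, nor did the other Penk probe sets. At their preferred probe sets, 9 of 13 processing genes, 0 of 24 other precursors and 1 of 18 receptors exceeded it on all arrays. The share of all genes was 25.7%. At its probe set with the suffix r, which is not the preferred one, the precursor Sct exceeded this limit on all arrays, at 1682, 1938 and 3702.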

How the data were processed

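The deposited table holds linear intensities of 12488 probe sets on each array. The software and scaling behind these deposited intensities are not given in the sources. The array name is taken from the sample titles. Gene symbols came from the platform annotation, in which 10833 probe sets had 1 symbol, 396 several and 1193 none. Each array was multiplied by a factor (0.998, 1.00 and 1.00) that made the 2% trimmed means of the arrays equal, with the 66 control probe sets left out. For log2 values only, signals under the 5th percentile of an array were raised to it. For genes with several probe sets the plain suffix was preferred, then the highest mean. The number of arrays limits the precision, and no test was run.

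The 5 genes and all gene lists were chosen with earlier results of these data known. Named genes were the 5 genes, the 3 closest to each in profile, precursors, receptors and processing genes above the limit, and the first 4 measured genes of a list; tissue lists are summed. Oprd1, Oprm1, Tacr1 and Th were named after their values were seen, as were the precursors Sct and Ppy. Alternatives covered the limit, scaling, floor, range threshold and each pool left out. The computations were tested on simulated data. Python 3.11.15, numpy 2.4.6, pandas 2.3.3 and matplotlib 3.10.9 were used.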

Additional observations from a re-analysis of the deposited data

How the results depend on the processing

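Of the 7 neuropeptide probe sets, between 5 and 7 were above background under the planned limits, scalings and omissions, and 1 with the antisense controls as limit. The number with a log2 range of 1 or more, 3 as reported, was 6 at a threshold of 1.5-fold and lay between 1 and 3 when a pool was left out; without replicate 1 the range of Vip was 0.05. The gap between Penk 161164_r_at and 94516_f_at was 1.03 after quantile normalization and 0.80 on log2(signal + 50), and 0.089 to 1.11 with a pool left out, lowest without replicate 1. The gap between 161164_r_at and 94517_r_at was 0.43 on log2(signal + 50) and 0.25 to 0.86 with a pool left out. That between 94516_f_at and 94517_r_at was 0.16 to 0.41 with a pool left out. The causes of these changes were not tested. The ranges of single probe sets and the counts of genes with a like profile moved in 24 of 88 recomputations, 19 of them with a pool left out. Signals near the limit, such as those of Penk 94517_r_at, are the least certain.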
